A study of Homo sapiens with 6 samples.

Results

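The genes described here encode the enzymes that load long-chain fatty acids onto coenzyme A and those that place the resulting acyl chains into phospholipids. They are the long-chain acyl-CoA synthetases ACSL1, ACSL3, ACSL4, ACSL5 and ACSL6 and the lysophospholipid acyltransferases LPCAT1, LPCAT2, LPCAT3, LPCAT4 and MBOAT7. The 10 genes were chosen by symbol as members of these families, without a threshold on any measured value, and all 10 were found among the 24960 genes of the deposited table. The measurements come from K562 cells, an established human chronic myeloid leukemia (CML) cell line of erythroleukemic character that carries the BCR-ABL1 fusion. Of the 6 RNA-seq libraries, 3 came from the control group and 3 from cells treated with hyperoside, a flavonol glycoside made of quercetin and galactose, which the study used at 2 mM. The study asked how hyperoside acts on CML cells. The labels give neither the dose nor the time of treatment before RNA extraction, and nothing states that the 3 replicates of a group were separate cultures, so the p-values measure the spread between these libraries, which may be technical.

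A free fatty acid is chemically inert until an acyl-CoA synthetase joins it to coenzyme A, after which it can be oxidized, stored as triglyceride or built into membranes. ACSL4 prefers arachidonic and adrenic acid, whereas ACSL3 sits on the endoplasmic reticulum and lipid droplets and handles many monounsaturated chains. Membrane phospholipids are then remodelled in the Lands cycle, in which a phospholipase A removes an acyl chain and a lysophospholipid acyltransferase inserts another. The polyunsaturated phospholipids made by ACSL4 and LPCAT3 are substrates of the lipid peroxidation that takes place in ferroptosis, an iron-dependent form of cell death.

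The counts assigned to genes summed to between 35613283 and 36754725 per library. The labels name the tissue as bone, and markers of the K562 cell were present: all 9 genes on an erythroid list were tested, and GATA1, the erythroid master transcription factor, stood at 94.3 ± 9.97 FPKM in controls and 93.98 ± 4.71 FPKM with hyperoside (SD, n = 3 each). Of 8 monocyte and granulocyte markers, LYZ, ITGAM, CYBB and CSF1R passed the filter on low counts and were called higher. The summed level of the list, most of it from LYZ, was 36.9 to 40.9 FPKM in controls and 62.8 to 65.5 FPKM in the hyperoside group. CSF1R, the receptor of macrophage colony-stimulating factor, passed the filter only through the hyperoside group (27 counts over the 3 controls, 99 over the treated libraries), so its direction was partly set by the filter, and it lost its call without control replicate 2 (adjusted p = 0.0632) or control replicate 3 (adjusted p = 0.0532). The other genes of the list, CD14, MPO, ELANE and FCGR3A, stayed below the filter and did not share a direction. Over the 3 libraries of a group CD14 had 8 counts in controls and 8 with hyperoside, MPO 15 and 9, ELANE 4 and 7, and FCGR3A 37 and 26. Of 7 lymphoid markers 3 were tested and 1, CD3D, was called higher. The summed list, most of it from CD3D, lay at 36.7 to 44.1 FPKM against 49.0 to 55.1 FPKM. The CD3D call was lost without control replicate 3 (adjusted p = 0.151), hyperoside replicate 1 (adjusted p = 0.106) or hyperoside replicate 3 (adjusted p = 0.0602). Of 7 tested epithelial and fibroblast markers 2 were called lower, the low-level fibroblast genes COL1A1 and PDGFRB, and the summed list lay at 229 to 238 FPKM against 225 to 237 FPKM. PDGFRB passed the filter only through the control group (64 counts over the 3 controls, 19 over the treated libraries), so its direction was partly set by the filter. The PDGFRB call was lost without control replicate 2 (adjusted p = 0.0791), hyperoside replicate 2 (adjusted p = 0.0660) or hyperoside replicate 3 (adjusted p = 0.0794), which left 1 gene of that list lower, and without control replicate 1 the list also held 1 gene called higher.

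All 10 genes passed the filter and were tested. Of these, 5 were lower in the hyperoside group (ACSL1, ACSL3, ACSL4, LPCAT1 and LPCAT4), 2 were higher (ACSL5 and LPCAT2) and 3 did not pass the test (ACSL6, LPCAT3 and MBOAT7) at an adjusted p under 0.05 in edgeR's quasi-likelihood test. Over all 15095 tested genes, 45.3% passed this test, 23.2% lower and 22.1% higher. With a fold change above 2 also required, the criterion for differentially expressed genes (DEGs), LPCAT4 was lower and ACSL5 was higher, where 3.76% and 6.43% of tested genes met it in those directions and 10.2% in either. In 8 of the 10 genes the normalized values of the groups did not overlap, against 54.4% of all tested genes. The median log2 fold change was -0.24 over the 10 genes and 0.0032 over all tested genes. RNA was taken from whole cultures, so fewer cells of one kind and less RNA per cell cannot be told apart.

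**Figure D1:**
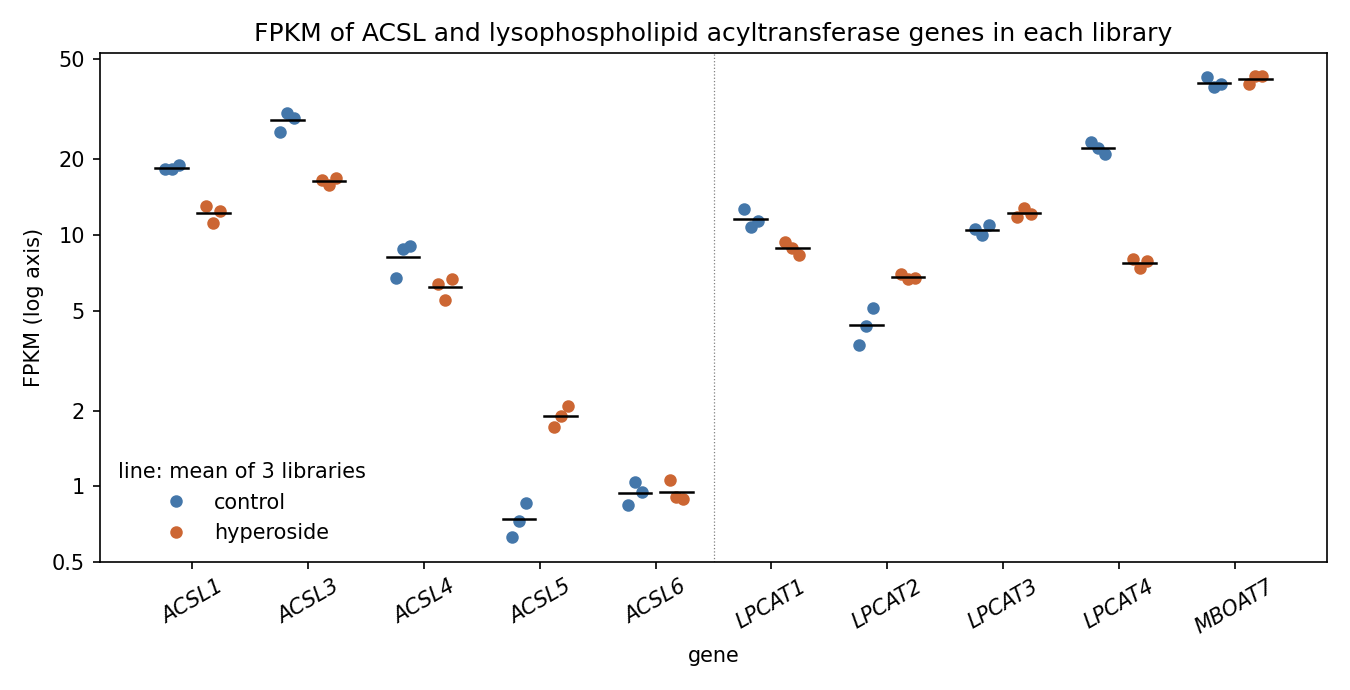
FPKM of each gene in each library on a log axis, with 1 point per library and a line at the mean of 3 libraries. ACSL3 and LPCAT4 are lower in all hyperoside libraries than in any control library, ACSL5 and LPCAT2 are higher, and the groups of ACSL6 and MBOAT7 overlap.

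LPCAT4 showed the smallest p-value among the 10 genes. It encodes an acyltransferase that acts on lysophosphatidylethanolamine and lysophosphatidylcholine and accepts oleoyl-CoA. The gene lies at chr15:34358618-34367278 on the minus strand of GRCh38. Its levels were 23.5, 22.1 and 21.1 FPKM in control replicates 1 to 3 and 8.03, 7.39 and 7.86 FPKM in hyperoside replicates 1 to 3. All 3 treated libraries were far below every control library, and their mean level was 34.9% of that in controls. On the log2 scale the difference was -1.57 ± 0.10 (SE, here and after ± for every log2 difference from edgeR; adjusted p = 1.03e-09), with a 95% interval from -1.77 to -1.37, and LPCAT4 ranked 45 of 15095 genes by p-value. Across the other settings and with any 1 library left out, the log2 fold change stayed between -1.62 and -1.41.

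Among the ACSL genes, those with the highest levels in these cells were lower after treatment. ACSL3, at chr2:222860934-222944639 on the plus strand, measured 25.7, 30.7 and 29.3 FPKM in the controls and 16.6, 15.8 and 16.9 FPKM in the hyperoside group. The groups did not overlap, and the log2 fold change was -0.85 ± 0.08 (adjusted p = 1.03e-07; 95% interval -1.01 to -0.69). ACSL1, which activates palmitic and oleic acid for oxidation and for lipid synthesis, lies at chr4:184755595-184826818 on the minus strand. Its level was 18.2, 18.3 and 19.0 FPKM in the controls and 13.0, 11.2 and 12.5 FPKM with hyperoside. The control libraries lay close together and above all treated ones, with a log2 fold change of -0.65 ± 0.08 (adjusted p = 4.29e-06). Relative to controls, the mean level with hyperoside was 57.5% for ACSL3 and 66.1% for ACSL1.

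ACSL4, at chrX:109624244-109733403 on the minus strand, changed by less and with more spread. It measured 6.75, 8.79 and 9.05 FPKM in the controls and 6.39, 5.49 and 6.67 FPKM with hyperoside. Control replicate 1 lay just above the highest treated library, and the other two controls stood clear of all treated libraries. The log2 fold change was -0.45 ± 0.11 (adjusted p = 0.0023), and it was -0.56 without control replicate 1. Control replicate 1 was also the lowest control for ACSL3, ACSL5, ACSL6 and LPCAT2.

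ACSL5 was the only synthetase among the 5 that was called higher. It is an enzyme of the mitochondrial outer membrane and endoplasmic reticulum, abundant in intestine, and lies at chr10:112374018-112428380 on the plus strand. Its level was low, with 87, 98 and 115 counts in the controls and 232, 258 and 281 counts in the hyperoside group. On the FPKM scale these were 0.628, 0.729 and 0.856 against 1.72, 1.89 and 2.08, so every treated library exceeded every control. The log2 fold change was 1.32 ± 0.19 (adjusted p = 2.25e-05; 95% interval 0.92 to 1.72). On the log2(FPKM + 1) scale, which understates changes at low levels, it was 0.74. In GENCODE 29, 144 exonic bases of ACSL5 (3.40%) are shared with ZDHHC6 on the other strand, a gene that was itself higher (log2 fold change 0.39 ± 0.09, adjusted p = 0.00256). Whether the counting used strand is not given in the sources used here.

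ACSL6, a synthetase of brain and red cell precursors with a preference for docosahexaenoic acid, lies at chr5:131949973-132012243 on the minus strand. Its levels of 0.838, 1.04 and 0.943 FPKM in the controls overlapped those of 1.06, 0.902 and 0.889 FPKM with hyperoside. The log2 fold change was -0.04 ± 0.16 (adjusted p = 0.873), and the 95% interval from -0.38 to 0.30 leaves room for moderate changes either way. Another annotated gene on the same strand, AC026398.1, covers 15.4% of the exonic bases of ACSL6.

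**Figure D2:**
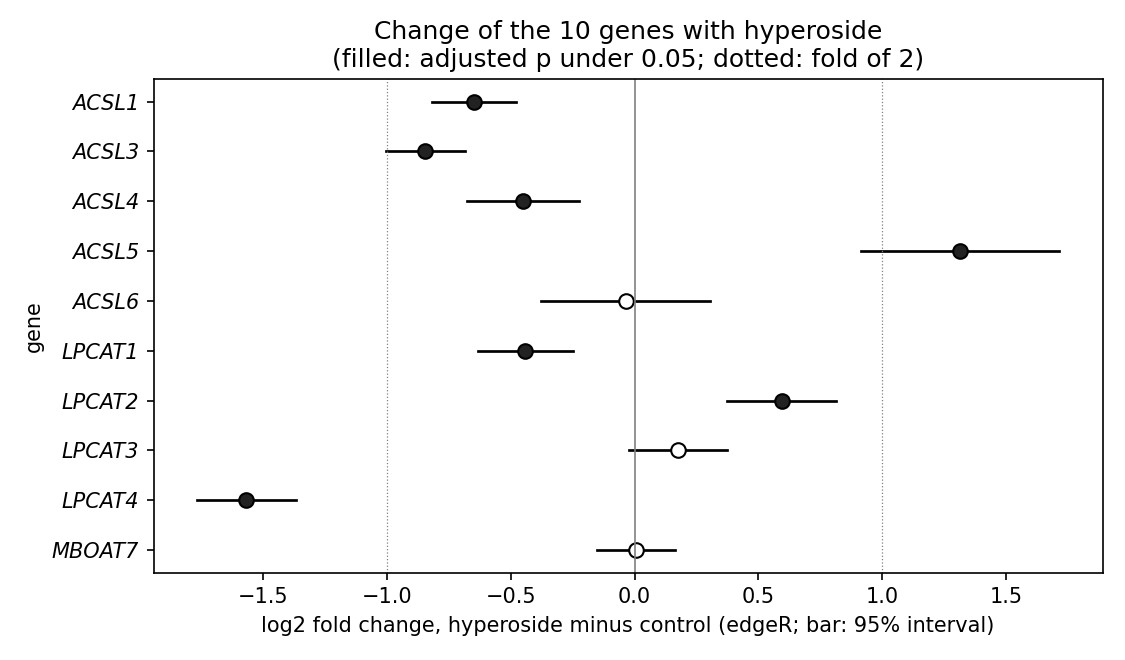
Log2 fold change of each gene, hyperoside minus control, from edgeR, with bars for the 95% interval, filled points for an adjusted p under 0.05 and dotted lines at a fold change of 2. LPCAT4 at -1.57 and ACSL5 at 1.32 lie beyond the dotted lines, and the intervals of ACSL6, LPCAT3 and MBOAT7 cross 0.

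Among the other acyltransferases, LPCAT1 and LPCAT2 moved in opposite directions. LPCAT1, which makes the dipalmitoyl phosphatidylcholine of lung surfactant, lies at chr5:1456480-1523977 on the minus strand. It was at 12.6, 10.8 and 11.4 FPKM in the controls and 9.34, 8.85 and 8.35 FPKM with hyperoside, again without overlap. The log2 fold change was -0.44 ± 0.09 (adjusted p = 7.2e-04). LPCAT2, at chr16:55508998-55586670 on the plus strand, encodes an enzyme of myeloid cells that also makes platelet-activating factor. Its levels were 3.64, 4.35 and 5.10 FPKM in the controls and 7.01, 6.68 and 6.72 FPKM with hyperoside. The treated libraries were close together and above the more widely spread controls, and the log2 fold change was 0.59 ± 0.10 (adjusted p = 1.68e-04). Of the monocyte and granulocyte markers, the NADPH oxidase subunit gene CYBB went from 1.06 ± 0.302 to 6.82 ± 0.503 FPKM. The integrin gene ITGAM went from 2.85 ± 0.235 to 5.23 ± 0.314 FPKM and the lysozyme gene LYZ from 34.8 ± 2.38 to 52.0 ± 1.69 FPKM. CD14, MPO, ELANE and FCGR3A were at or near 0 in both groups. The part of these markers in the LPCAT2 result was not tested.

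LPCAT3, which inserts linoleoyl and arachidonoyl chains into phosphatidylcholine and phosphatidylethanolamine, lies at chr12:6976186-7018510 on the minus strand. It was at 10.5, 10.01 and 10.9 FPKM in the controls and 11.8, 12.8 and 12.1 FPKM with hyperoside. The treated values lay slightly above the controls, yet LPCAT3 did not pass the test, with a log2 fold change of 0.18 ± 0.09 (adjusted p = 0.141; 95% interval -0.02 to 0.37). It did pass in limma on log2(FPKM + 1), with a log2 fold change of 0.21 (adjusted p = 0.0347), and on log2(FPKM + 0.1), with 0.22 (adjusted p = 0.0335). Those fits called more genes higher than lower over all genes, 3563 against 2783 and 3562 against 2814. In the other settings the adjusted p of LPCAT3 lay between 0.0879 and 0.359. In GENCODE 29, 3100 of the 4725 exonic bases of LPCAT3 (65.6%) overlap EMG1, a ribosome biogenesis gene on the opposite strand. Without strand the reads of the 2 genes cannot be told apart there. The counts and FPKM correspond to a shorter LPCAT3 length of 2339 bases, so the overlap of the gene as counted is not known. EMG1 had a log2 fold change of -0.04 ± 0.11 (adjusted p = 0.801).

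MBOAT7, which attaches arachidonic acid to lysophosphatidylinositol, had the highest level of the 10 genes. It lies at chr19:54173412-54189882 on the minus strand and was at 42.4, 38.8 and 39.9 FPKM in the controls and 40.02, 42.9 and 42.9 FPKM with hyperoside. The groups overlapped, and the log2 fold change was 0.01 ± 0.08 (adjusted p = 0.961), with a 95% interval of -0.15 to 0.16. MBOAT1 and MBOAT2, related acyltransferases that use monounsaturated chains, went in opposite directions, with log2 fold changes of 0.36 ± 0.08 for MBOAT1 (adjusted p = 0.00198) and -0.53 ± 0.09 for MBOAT2 (adjusted p = 1.02e-04).

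The order of levels per length changed within both families. In the controls the order by mean FPKM was MBOAT7, ACSL3, LPCAT4, ACSL1, LPCAT1, LPCAT3, ACSL4, LPCAT2, ACSL6 and ACSL5, in which LPCAT1 and LPCAT3 overlapped, as did ACSL6 and ACSL5. In the hyperoside group it was MBOAT7, ACSL3, LPCAT3, ACSL1, LPCAT1, LPCAT4, LPCAT2, ACSL4, ACSL5 and ACSL6, with overlap only between LPCAT3 and ACSL1. The place of LPCAT4 went from 3 to 6, and ACSL5 stood above ACSL6 after treatment without overlap.

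The summed FPKM of the 5 synthetases was 52.1, 59.5 and 59.2 in the controls and 38.8, 35.2 and 39.0 in the hyperoside group. Every treated sum was below every control sum, with means of 57.0 ± 4.17 and 37.7 ± 2.12. ACSL3 made up 50.1% ± 1.26 of this sum in the controls and 43.7% ± 1.04 with hyperoside, while ACSL5 went from 1.29% ± 0.135 to 5.04% ± 0.537 and ACSL1 held 32.6% ± 2.19 and 32.4% ± 1.01 (SD, n = 3). The summed FPKM of the 5 acyltransferases was 92.7, 86.0 and 88.3 in the controls and 76.2, 78.7 and 77.9 with hyperoside. The share of LPCAT4 in it was 24.95% ± 0.981 and then 10.001% ± 0.575, that of LPCAT3 was 11.8% ± 0.518 and then 15.8% ± 0.455, and that of MBOAT7 was 45.3% ± 0.349 and then 54.0% ± 1.34. These shares are relative, so the larger share of MBOAT7 accompanied a level that did not pass the test. They describe the libraries and were not tested.

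**Figure D3:**
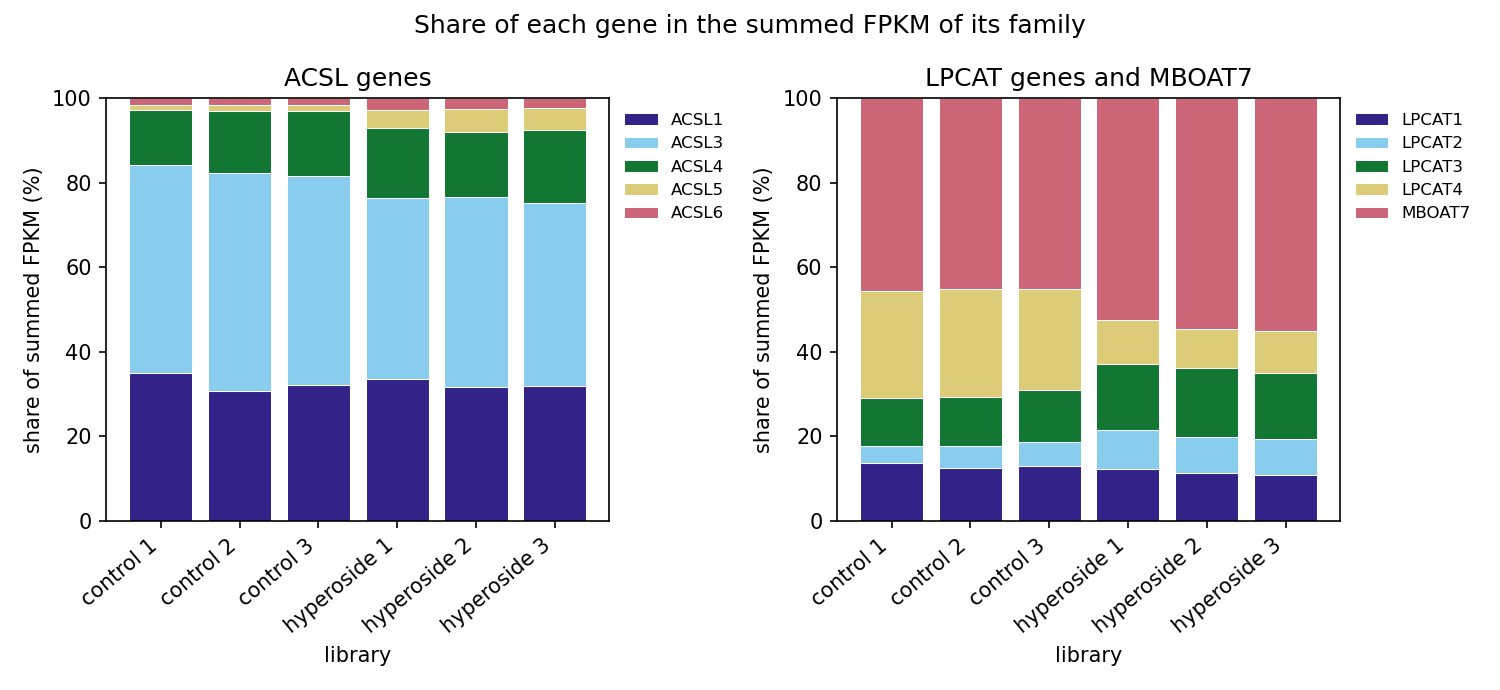
Share in percent of each gene in the summed FPKM of the ACSL genes (left) and of the LPCAT genes with MBOAT7 (right), with 1 stacked bar per library. The LPCAT4 segment averages 24.95% in the controls and 10.001% with hyperoside, and the ACSL5 segment 1.29% and 5.04%.

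A pair of ratios set enzymes that favor polyunsaturated chains against relatives that favor other chains. They were chosen with the direction of ACSL3 in these data already known. The log2 ratio of ACSL4 to ACSL3 was -1.81 ± 0.12 in the controls and -1.42 ± 0.10 with hyperoside, a difference of 0.39. The log2 ratio of LPCAT3 to LPCAT1 was -0.14 ± 0.11 and 0.47 ± 0.11, a difference of 0.61. In both, all 3 treated libraries lay above all controls. The two-sided exact permutation test gave p = 0.1 for each, also after adjustment over the 2 ratios, which is the smallest value that 3 against 3 libraries allow. ACSL4 itself was lower in the hyperoside group, with a log2 fold change of -0.45 against -0.85 for ACSL3. LPCAT3 itself did not pass the test, with a log2 fold change of 0.18 against -0.44 for LPCAT1. LPCAT3 also shares 65.6% of its exonic bases with EMG1.

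The promoters of these genes were set beside the measurements to show how the genes with the largest differences vary in sequence. RefSeq windows (GRCh38.p14) from 250 bases before to 50 after the start site were matched for 9 of the 10 genes, all except LPCAT2, in 20 windows. The runs below end where annotated exons begin, read 5′ to 3′ on the strand of the gene, and show matches to the GC box GGGCGG (the Sp1 motif, CCGCCC on the other strand) and to the NF-Y box CCAAT in capitals. They show LPCAT4 and ACSL3, which were lower, LPCAT3, which did not pass the test, and 1 of the 2 windows of ACSL5, which was higher. The LPCAT4 window holds 4 GC boxes, of which 1 lies in the run shown.
LPCAT4, chr15:34367279-34367446, minus strand: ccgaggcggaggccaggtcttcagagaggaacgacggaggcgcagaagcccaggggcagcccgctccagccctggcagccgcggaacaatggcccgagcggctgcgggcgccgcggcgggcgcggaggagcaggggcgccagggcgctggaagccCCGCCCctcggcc
ACSL3, chr2:222860786-222860933, plus strand: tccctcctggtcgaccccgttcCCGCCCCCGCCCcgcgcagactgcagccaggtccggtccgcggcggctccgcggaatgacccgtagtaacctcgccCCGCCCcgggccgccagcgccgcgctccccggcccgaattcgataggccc
LPCAT3, chr12:7018511-7018726, minus strand: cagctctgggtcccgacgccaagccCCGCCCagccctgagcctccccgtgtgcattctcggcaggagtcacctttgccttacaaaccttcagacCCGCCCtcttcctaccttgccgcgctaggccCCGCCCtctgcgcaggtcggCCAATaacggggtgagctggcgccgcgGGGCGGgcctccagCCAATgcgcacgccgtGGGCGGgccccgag
ACSL5, chr10:112375018-112375234, plus strand: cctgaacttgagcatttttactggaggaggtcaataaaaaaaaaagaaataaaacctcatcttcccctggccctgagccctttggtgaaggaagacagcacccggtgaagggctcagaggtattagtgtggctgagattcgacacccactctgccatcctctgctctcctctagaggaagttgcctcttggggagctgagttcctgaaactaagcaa

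The G and C bases made up 77.98% of the LPCAT4 run, 77.0% of the ACSL3 run and 70.8% of the LPCAT3 run, but 48.8% of the ACSL5 run. Over the full windows, searched on both strands, a GC box occurred in 8 of the 9 genes, all except ACSL5, and in 45.0% of the 35116 promoter windows searched. Those 35116 windows leave out chromosome 8. CCAAT occurred in 3 of the 9 genes (ACSL1, ACSL3 and LPCAT3) and in 34.6% of all windows. The antioxidant response element core TGACNNNGC, the kind of site bound by NRF2, matched in 4 genes (ACSL1, ACSL5, ACSL6 and LPCAT4) and in 13.3% of all windows, and a sterol response element of the form TCACNCCAC matched in ACSL1 and ACSL6 and in 1.13%. TATAAA matched in ACSL1 (11.5% of all windows) and CCACG, part of the ER stress element, in ACSL1, ACSL4, LPCAT1 and LPCAT3 (38.1%). The E box CACGTG, which shares letters with CCACG, and the amino acid response element TGATGNAAT matched in none of the 20 windows and occurred in 7.26% and 0.991% of all windows. Genes with several windows had more chances of a match, so windows were also counted, as in the shares of all windows. Several ACSL6 windows overlap each other, so a single GC box and a single TGACNNNGC match there were each counted in more than 1 window. Of the 20 windows, 12 held a GC box, 3 CCAAT, 5 TGACNNNGC, 2 TCACNCCAC, 1 TATAAA and 6 CCACG. The genes called lower, the genes that did not pass the test and ACSL5, which was called higher, all had windows with at least 1 of these motifs. LPCAT2, also called higher, had no window to search. A match describes letters, not a bound site.

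The genes whose profiles over the 6 libraries were nearest to those of the leading pair were found by Euclidean distance of centered log2 CPM (counts scaled to library size). For LPCAT4 these were MAST1 (distance 0.125), FDFT1 (0.129), which encodes squalene synthase, and PLCD1 (0.167), a phospholipase C gene. FDFT1 had a mean of 391 CPM in the controls and 136 CPM with hyperoside. For ACSL5 they were RNF32 (0.201), HPS6 (0.214) and LOC105372427 (0.217), with RNF32 going from 2.59 to 6.06 CPM. LOC105372427 was near the low-count filter, at 0.160 CPM in the controls and 0.466 CPM with hyperoside. Its log2 fold change was 1.52, against 1.32 for ACSL5. A prior count of 2 was added before the logarithm, which shrinks differences at low counts and so affects this distance.

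Genes that act on lipids before, beside and after these enzymes were gathered in 8 lists, to which a list of lipid-related transcription factors and a list of liver X receptor targets were added. Of 159 listed symbols 151 were in the table and 134 were tested, of which 46 were lower, 24 were higher and 64 did not pass the test. With a fold change above 2, 5 were lower and 6 higher, and the median log2 fold change was -0.09. These counts compare with the 23.2% lower and 22.1% higher of all tested genes given above, and no difference from other genes was tested.

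**Figure D4:**
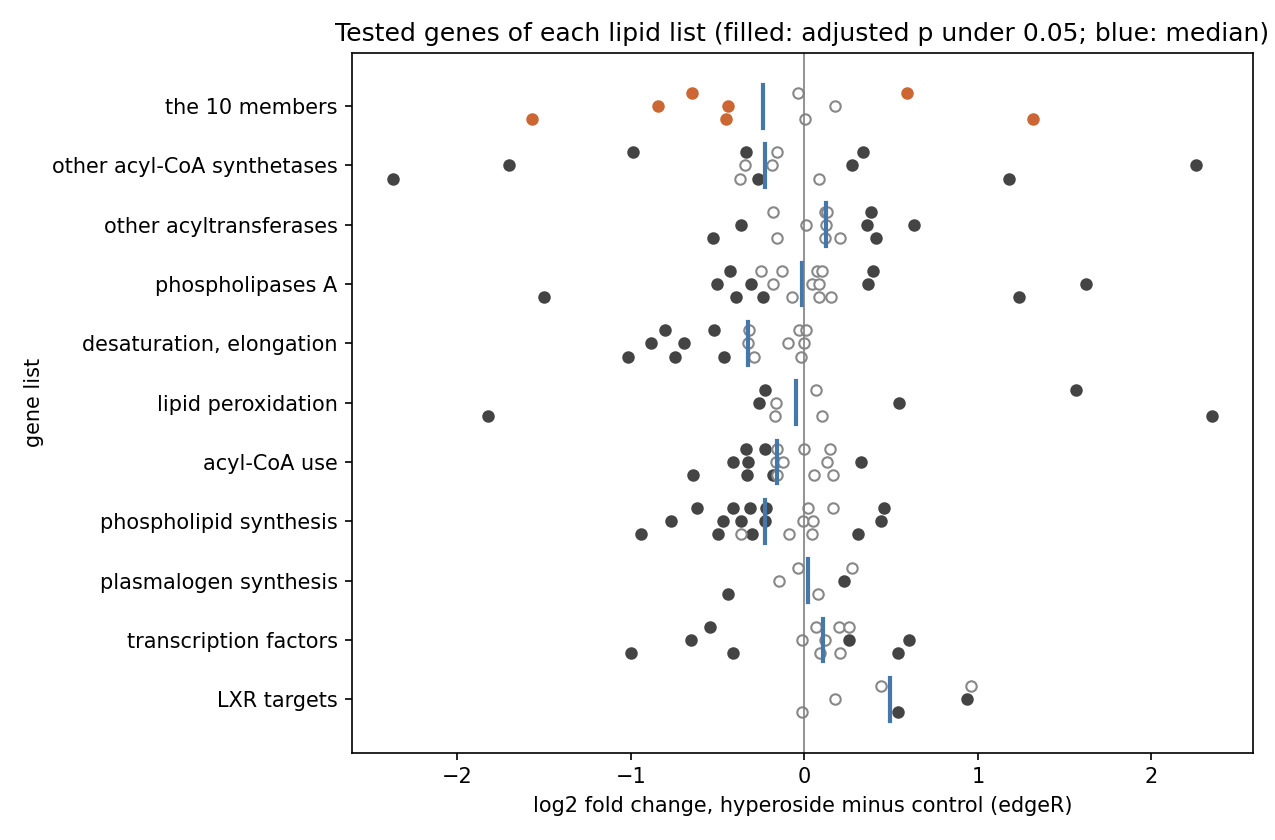
Log2 fold change, hyperoside minus control (edgeR), of every tested gene in each list, with 1 point per gene, filled where the adjusted p was under 0.05, and a blue line at the list's median. In desaturation and elongation 7 points are filled and all lie below 0, with a median of -0.32.

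Of the other acyl-CoA synthetases 14 of 16 were tested, and 5 were lower, 4 were higher and 5 did not pass, with a median of -0.23. SLC27A2, a very-long-chain synthetase and fatty acid transporter, measured 21.2, 22.6 and 20.4 FPKM in the controls and 49.7, 48.3 and 52.3 FPKM with hyperoside. All treated values exceeded the controls by far, with a log2 fold change of 1.18 ± 0.08 (adjusted p = 3.54e-09). SLC27A1, a fatty acid transport protein with synthetase activity, fell by 0.99 ± 0.17 on the log2 scale (adjusted p = 1.65e-04), and ACSS1, the mitochondrial acetyl-CoA synthetase, fell by 2.37 ± 0.33 (adjusted p = 1.38e-05), from 322 to 64 counts over 3 libraries. The bubblegum synthetases were at the edge of detection, with ACSBG1 lower (log2 fold change -1.70 ± 0.57, adjusted p = 0.0207) and ACSBG2 higher (2.26 ± 0.82, adjusted p = 0.0317). ACSBG1 lost its call without control replicate 3 (adjusted p = 0.139) or hyperoside replicate 1 (adjusted p = 0.103), and ACSBG2 lost it without any 1 of the 6 libraries (adjusted p = 0.0514 to 0.157), in DESeq2 (adjusted p = 0.0683), with no filter (adjusted p = 0.0752) and in limma on log2(FPKM + 1) (adjusted p = 0.0562). ACSBG2, with 8 counts over the controls and 41 over the treated libraries, passed the filter only through the hyperoside group. ACSBG1, with 102 counts over the controls and 32 over the treated libraries, passed it only through the control group, since hyperoside replicate 1 had 4 counts. The directions of ACSBG1 and ACSBG2 were therefore partly set by the filter. ACSBG1 was not called in limma either (adjusted p = 0.0764 and 0.150). The list then held 3 lower genes without control replicate 3 or hyperoside replicate 1 and 2 higher genes without control replicate 2.

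Of 14 tested acyltransferases of glycerolipids outside the LPCAT family, 2 were lower and 4 higher, with 8 that did not pass and a median of 0.12. AGPAT3, which makes phosphatidic acid with polyunsaturated chains, measured 7.62, 7.15 and 7.10 FPKM in the controls and 11.3, 12.2 and 11.7 FPKM with hyperoside. The groups stood clear of each other, with a log2 fold change of 0.63 ± 0.08 (adjusted p = 3.41e-06). ABHD5, a co-activator of triglyceride lipase, was higher by 0.42 ± 0.08 on the log2 scale (adjusted p = 2.2e-04), and it shares this direction with MBOAT1.

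The phospholipases A and lysophospholipases supply the lysophospholipids that LPCAT enzymes use. Of 20 tested genes 6 were lower, 4 were higher and 10 did not pass, with a median of -0.01. PLAAT3 fell by 1.503 ± 0.24 on the log2 scale (adjusted p = 5.45e-05), PLA2G12A fell by 0.39 ± 0.08 (adjusted p = 8.77e-04), and the lysophospholipase PNPLA7 was higher by 1.24 ± 0.24 (adjusted p = 4.56e-04). PLA2G4A, the cytosolic phospholipase that releases arachidonic acid, had a log2 fold change of -0.43 ± 0.16 (adjusted p = 0.036), and its call was lost without any 1 library except control replicate 3 (adjusted p = 0.0570 to 0.1003), with no filter (adjusted p = 0.0632) and in limma on log2(FPKM + 0.1) (adjusted p = 0.0544). PLA2G4C passed the filter only through the hyperoside group, at 18 counts over the controls and 58 over the treated libraries. It had 1.62 ± 0.64 (adjusted p = 0.0473) and lost its call without any 1 library except control replicate 2 (adjusted p = 0.0838 to 0.167), in DESeq2 (adjusted p = 0.0894), with no filter (adjusted p = 0.0981) and in limma on log2(FPKM + 1) (adjusted p = 0.0633). PLA2G6, a calcium-independent phospholipase, did not pass (-0.07 ± 0.13, adjusted p = 0.700). Without hyperoside replicate 3 the higher genes of the list numbered 2.

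Desaturases and elongases set which chains are available. Of 15 tested genes 7 were lower, 0 were higher and 8 did not pass edgeR's test, with a median of -0.32. The count higher was also 0 at an unadjusted p under 0.05 and by DESeq2 and limma. SCD, the desaturase that makes oleic and palmitoleic acid, measured 115, 125 and 122 FPKM in the controls and 60.4, 62.8 and 62.4 FPKM with hyperoside. The treated libraries clustered at about the midpoint of the control level, with a log2 fold change of -1.01 ± 0.07 (adjusted p = 2.17e-09). ELOVL5, which elongates polyunsaturated chains, fell by 0.52 ± 0.07 (adjusted p = 1.04e-05), FADS3 by 0.69 ± 0.11 (adjusted p = 4.33e-05) and FADS2, the delta-6 desaturase, by 0.74 ± 0.14 (adjusted p = 2.51e-04). FADS1, the delta-5 desaturase, had a log2 fold change of -0.03 ± 0.07 (adjusted p = 0.738).

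Of 10 tested genes of lipid peroxidation and its control, 3 were lower, 3 were higher and 4 did not pass, with a median of -0.05. ALOX12, the 12-lipoxygenase, fell by 1.82 ± 0.25 on the log2 scale (adjusted p = 1.46e-05), from 1.04 ± 0.222 to 0.303 ± 0.0547 FPKM. ALOX5, the 5-lipoxygenase of myeloid cells, was at 26.3 ± 3.62 and 39.6 ± 4.22 FPKM, a log2 fold change of 0.54 ± 0.10 (adjusted p = 1.98e-04). Its partner ALOX5AP was called higher from 14 to 75 counts over 3 libraries (2.35 ± 0.74, adjusted p = 0.0152), a call lost without control replicate 2 (adjusted p = 0.0578), hyperoside replicate 1 (adjusted p = 0.0557) or hyperoside replicate 3 (adjusted p = 0.0778). PTGS2, a cyclooxygenase, was higher by 1.57 ± 0.44 (adjusted p = 0.00782) and was not called without hyperoside replicate 1 (adjusted p = 0.0677). ALOX15 was at 0 counts in the controls and 33 counts over the 3 hyperoside libraries, below the filter. GPX4, the peroxidase that reduces phospholipid hydroperoxides, measured 179, 160 and 169 FPKM in the controls and 154, 143 and 169 FPKM with hyperoside. These overlap, and GPX4 did not pass the test (log2 fold change -0.17 ± 0.08, adjusted p = 0.0913), but did without hyperoside replicate 3 (adjusted p = 0.0464). POR, the electron donor of cytochrome P450 enzymes, did not pass either (-0.17 ± 0.09, adjusted p = 0.125). Without hyperoside replicate 2 the lower genes of the list numbered 1. ALOX5AP passed the filter only through the hyperoside group, where it was higher. The part of the monocyte and granulocyte markers given above in the ALOX5 result was not tested.

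The uses of acyl-CoA outside membranes include storage, oxidation and hydrolysis. Of 17 tested genes 7 were lower, 1 was higher and 9 did not pass, with a median of -0.16. ACBD3, an acyl-CoA binding protein of the Golgi, fell by 0.64 ± 0.08 on the log2 scale (adjusted p = 7.62e-06), ACADVL, the very-long-chain acyl-CoA dehydrogenase, by 0.34 ± 0.07 (adjusted p = 0.0012), and DGAT1, the last enzyme of triglyceride synthesis, by 0.33 ± 0.08 (adjusted p = 0.00382). Without hyperoside replicate 1 the list held 4 lower genes, and the higher gene, ACBD5, was lost without control replicate 1, hyperoside replicate 1 or hyperoside replicate 3, while 2 were higher without control replicate 3. ACBD5 is named after its value was seen.

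De novo phospholipid synthesis makes the lipids that the acyltransferases remodel. Of 21 tested genes 11 were lower, 3 were higher and 7 did not pass, with a median of -0.22. PGS1, the first committed enzyme of cardiolipin synthesis, measured 7.85, 7.45 and 6.63 FPKM in the controls and 4.44, 4.46 and 4.44 FPKM with hyperoside. The treated libraries were nearly equal and below all controls, and the log2 fold change was -0.77 ± 0.09 (adjusted p = 3.24e-06). SELENOI, which makes phosphatidylethanolamine, fell by 0.62 ± 0.10 (adjusted p = 6.09e-05), and LPIN1, a phosphatidate phosphatase, fell by 0.47 ± 0.09 (adjusted p = 2.89e-04).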

How the data were processed

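RNA from 6 K562 libraries, 3 control and 3 hyperoside, was isolated with Trizol reagent and sequenced by Illumina HiSeq, with group and replicate number taken from the labels. The submitters' processing notes name fastp, HISAT2, HTSeq and hg38, and the strand setting is not given in the sources used here. The authors deposited raw counts per gene. They also deposited FPKM values, which divide counts by the length of the gene and the total of the library. Counts were compared with edgeR 4.0.16 in R 4.3.3 (filterByExpr with a minimum count of 10 and total of 15, TMM, quasi-likelihood test) and p-values adjusted by Benjamini-Hochberg over 15095 genes. Standard errors were obtained as |log2 fold change| over the root of the F statistic. The fit was tested on simulated counts. Alternatives were DESeq2 1.42.0, limma 3.58.1 on log2(FPKM + 1) and log2(FPKM + 0.1), RLE factors, no filter, a stricter filter (1 CPM in 3 libraries), the replicate number as a block and leaving out each library. Replicates differed by more than counting error, with a chi-square per degree of freedom of 6.34 to 23.1.

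The genes named are all 10 members, the 3 genes of each other list with the smallest adjusted p among those called, all genes called with a fold change above 2, GPX4, ALOX15, FADS1, FADS2, SCD, PLA2G4A, PLA2G6, MBOAT1, MBOAT2, POR, NR1H3 and SREBF1, and the 3 genes nearest in profile to LPCAT4 and ACSL5. Outside this rule, GATA1 and the monocyte markers below the filter are named to check the cell type, EMG1, ZDHHC6 and AC026398.1 for their overlap with members, and ACBD5 after its value was seen. The members and lists were chosen with earlier results of these data known. Of 9 listed symbols without a row, TMEM189 is an older name of PEDS1, which was tested under that name, and the other 8 (ACADL, ACOT4, ALOX15B, ELOVL4, PLA2G10, PLA2G7, SCD5 and KRT5) were not analysed here. Gene positions and overlaps are from GENCODE 29 and promoter sequences from RefSeq.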

Additional observations from a re-analysis of the deposited data

How the results depend on the processing

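All 10 genes kept their direction where they were called, and the counts of 5 lower and 2 higher held in every edgeR and DESeq2 setting and without any 1 library. The limma fits called 3 higher, adding LPCAT3. Over all genes, limma called 2783 lower and 3563 higher on log2(FPKM + 1) and 2814 and 3562 on log2(FPKM + 0.1). In edgeR these counts were 3508 and 3333. Limma on log2(FPKM + 1) moved the number of the 10 genes higher with a fold change above 2 from 1 to 0, since ACSL5 was at 0.74 there. On that scale 136 genes were lower and 208 higher with a fold change above 2 over all genes, against 567 and 970 in edgeR and 418 and 817 in limma on log2(FPKM + 0.1). The counts over the other lipid lists ranged from 33 to 46 lower and from 17 to 26 higher. Within lists, the limma fits gave 3 other synthetases lower (5 in edgeR), 1 peroxidation gene lower (3) and 2 acyl-CoA users higher (1), and the stricter filter left 1 peroxidation gene higher (3). Fibroblast markers lower numbered 1 rather than 2 without a filter, with the stricter one and in limma on log2(FPKM + 1). Without any 1 library the ratio difference stayed at 0.34 to 0.45 for ACSL4 to ACSL3 and at 0.55 to 0.68 for LPCAT3 to LPCAT1, where the smallest possible p is 0.2.

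The shared replicate numbers showed no pairing in the values: same-numbered libraries deviated with correlations of -0.081 to -0.0327, and 0 of 6 correlated best with their own number. Whether same-numbered libraries were prepared together is not given in the labels, and these correlations cannot decide it. With the replicate block the 10 genes again gave 5 lower and 2 higher, the other lipid lists 36 lower and 21 higher, 1 peroxidation gene lower rather than 3, 0 plasmalogen genes higher rather than 1, and all genes 3103 lower and 3026 higher against 3508 and 3333 without it. The block also ended the calls of ACSBG2 (adjusted p = 0.0620), PLA2G4A (0.0547), PLA2G4C (0.0719) and GNPAT (0.0554) among the named genes.

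Low counts limit ACSL5, ACSL6, ACSBG1, ACSBG2, PLA2G4C and ALOX5AP, and intervals cover the spread of these 6 libraries only. LPCAT3 shares most of its exonic bases with EMG1.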

Other observations

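Of 14 tested transcription factors of lipid genes, 4 were lower, 3 were higher and 7 did not pass edgeR's test, with a median log2 fold change of 0.11. SREBF2, the regulator of sterol synthesis genes, measured 27.9, 27.0 and 25.8 FPKM in the controls and 18.2, 17.0 and 17.9 FPKM with hyperoside. The groups stood apart, with a log2 fold change of -0.65 ± 0.07 (adjusted p = 1.29e-06). Its relative SREBF1, which regulates fatty acid synthesis, was at 10.9 ± 0.471 and 11.2 ± 0.311 FPKM and did not pass (-0.01 ± 0.08, adjusted p = 0.913). MLXIPL, the carbohydrate response factor, fell by 0.997 ± 0.19 on the log2 scale (adjusted p = 3.47e-04). Both liver X receptor genes were higher, NR1H2 by 0.61 ± 0.09 (adjusted p = 2.22e-05) and NR1H3 by 0.54 ± 0.13 (adjusted p = 0.00269). Without control replicate 1 the higher genes of this list numbered 5.

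Of 6 tested targets of the liver X receptors, 2 were higher and 4 did not pass, with a median log2 fold change of 0.49. NR1H3 is on this list too, and SREBF1 and LPCAT3 are among the 4. MYLIP, which marks the LDL receptor for degradation, measured 31.5, 33.5 and 31.5 FPKM in the controls and 64.6, 61.7 and 65.5 FPKM with hyperoside, a log2 fold change of 0.94 ± 0.07 (adjusted p = 1.24e-08). Every treated library lay well above every control. Of 6 tested plasmalogen genes 1 was lower, 1 was higher and 4 did not pass, with a median of 0.02. FAR1, which makes the fatty alcohols of plasmalogens, fell by 0.44 ± 0.10 on the log2 scale (adjusted p = 0.0019). GNPAT, the peroxisomal acyltransferase that begins plasmalogen synthesis, was higher by 0.23 ± 0.07 (adjusted p = 0.0193) and lost its call without control replicate 2 (adjusted p = 0.0759), hyperoside replicate 1 (adjusted p = 0.0669) or hyperoside replicate 3 (adjusted p = 0.0709).

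Among the erythroid markers 3 of 9 were lower and 3 higher. The fetal globin gene HBG2 fell by 0.80 ± 0.09 on the log2 scale (adjusted p = 2.34e-06), while the erythropoietin receptor gene EPOR was higher by 1.22 ± 0.12 (adjusted p = 4.65e-07) and the transferrin receptor gene TFRC by 0.88 ± 0.09 (adjusted p = 4.93e-07). Their summed level was 3298 to 4131 FPKM in the controls and 2342 to 2830 FPKM with hyperoside, most of it from globin genes.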
